A study of Caenorhabditis elegans with 15 samples.

Results

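The glutathione S-transferase (GST) family of Caenorhabditis elegans was followed in RNA sequencing libraries of whole worms. Its members were all protein-coding genes whose RefSeq symbol, matched to the locus tag in the count table, was gst-, gsto- or gstk- followed by a number. This gave 49 genes among 19982 protein-coding genes and 46929 genes in the table: 44 gst genes, 3 gsto genes of the omega class and 2 gstk genes of the kappa class. The rule itself used symbols only.

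Poly(A) RNA came from 3 groups of 5 libraries each, with about 1000 worms in every library. The wild type was the N2 strain. The ACP7 OE group was strain ABR275, in which the promoter of ges-1, active in the intestine, drives F21A3.11, a secreted phosphatase called ACP7, followed by an SL2 WormScarlet reporter and the unc-54 3' UTR. The ACP7-7A OE group was strain ABR484, with the same construct carrying a version without phosphatase activity. Each construct was represented by 1 strain, wild type carried no construct, and the labels give neither the age nor the stage of the worms. The labels do not say whether replicates came from separate cultures, so the p-values measure the spread between these libraries, which may be technical.

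GSTs join glutathione to reactive electrophilic compounds, which makes them easier to remove, and some reduce peroxides. In worms many GSTs are made in the intestine, and several are switched on by SKN-1, the worm relative of the mammalian Nrf factors, under oxidative or xenobiotic stress. Omega-class members have a cysteine in place of the usual tyrosine or serine at the active site, zeta-class members isomerise maleylacetoacetate in tyrosine breakdown, and kappa-class members lie in peroxisomes and mitochondria.

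Library totals ran from 39050495 to 49452773 counts for wild type, from 39180648 to 58077047 for ACP7 OE and from 41696722 to 50869260 for ACP7-7A OE. F21A3.11, the overexpressed gene, was at 15 ± 1.52 CPM (counts per 1000000 counts of the scaled library; SD, n = 5) in wild type, 610 ± 29.8 with ACP7 OE and 1360 ± 229 with ACP7-7A OE. WormScarlet was at 0 in wild type, at 869 ± 61.0 CPM with ACP7 OE and at 2030 ± 372 CPM with ACP7-7A OE, so the transgenic groups differed in transgene level as well as in phosphatase activity. ACP7-7A OE replicates 1 and 2 stood apart from the other 3: the summed level of 31 msp sperm genes was 82.5 and 80.2 CPM in them and 364 to 375 CPM in the others, and that of 156 cuticle collagen genes was 14200 and 15500 CPM against 24900 to 26100. Their WormScarlet level was also lower, at 1580 and 1690 CPM against 2170 to 2360. Wild-type replicate 5 was low in collagens, at 18300 CPM, and high in 8 germline and oocyte genes, at 6310 CPM. GST calls in each comparison and the fold changes of the called members are therefore also given without these 3 libraries. Calls for marker genes, other gene lists and families, and genes next to called members are given with all 15 libraries only. ACP7 OE replicate 1, which was kept when the 3 were left out, also differed from its group. It had 522 CPM of msp genes against 338 to 420 in the others, and 4180 CPM of 7 body wall muscle genes against 3210 to 3650. Without it alone, 2 GST genes were called in ACP7 OE against wild type (4.76%, against 2.62% of all genes). In ACP7-7A OE against wild type 7 were called (16.7% against 8.32%). In ACP7 OE against ACP7-7A OE 5 were called (11.9%, equal to the 11.9% of all genes). With all 15 libraries these calls were 0, 7 and 4.

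The family took a small share of the transcripts in all groups. GST genes held 28747 to 43368 counts in a library, or 0.0777% of counts in wild type, 0.0729% with ACP7 OE and 0.075% with ACP7-7A OE on average. The summed level of the 49 members was 772 ± 24.3 CPM in wild type (SD, n = 5, range 737 to 796), 726 ± 31.1 with ACP7 OE (697 to 777) and 758 ± 39.5 with ACP7-7A OE (694 to 796). The ranges of the 3 groups overlapped. For ACP7 OE and wild type this rested on ACP7 OE replicate 1, at 777 CPM. ACP7 OE replicates 2 to 5, at 709, 697, 728 and 718 CPM, lay below all wild-type libraries.

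A few members supplied most of it. On the scale of CPM per kilobase of exon, which allows levels of different genes to be compared, the 5 highest members held 65.1% of the family level in wild type, 66.3% with ACP7 OE and 67.5% with ACP7-7A OE. gst-1, a pi-like GST that in worms protects dopamine neurons from manganese, led with 226 ± 8.84 CPM per kilobase in wild type (SD, n = 5). gst-7 followed with 169 ± 12.1, gst-13 with 116 ± 11.1, gst-27 with 98.7 ± 9.6 and gst-10 with 55.3 ± 3.9. The wild-type libraries of gst-1 lay above all those of gst-7, and those of gst-7 above all those of gst-13. gst-13 and gst-27 overlapped and could not be ordered beyond their spread, as was the case for gst-10 and gst-26 at 48.4 CPM per kilobase, and for gst-26 and gst-36 at 44.0. Below them came gst-4 at 32.7, the peroxisomal gstk-1 at 27.6 and the zeta-class gst-42 at 27.4 CPM per kilobase, of which the last 2 overlapped.

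**Figure D1:**
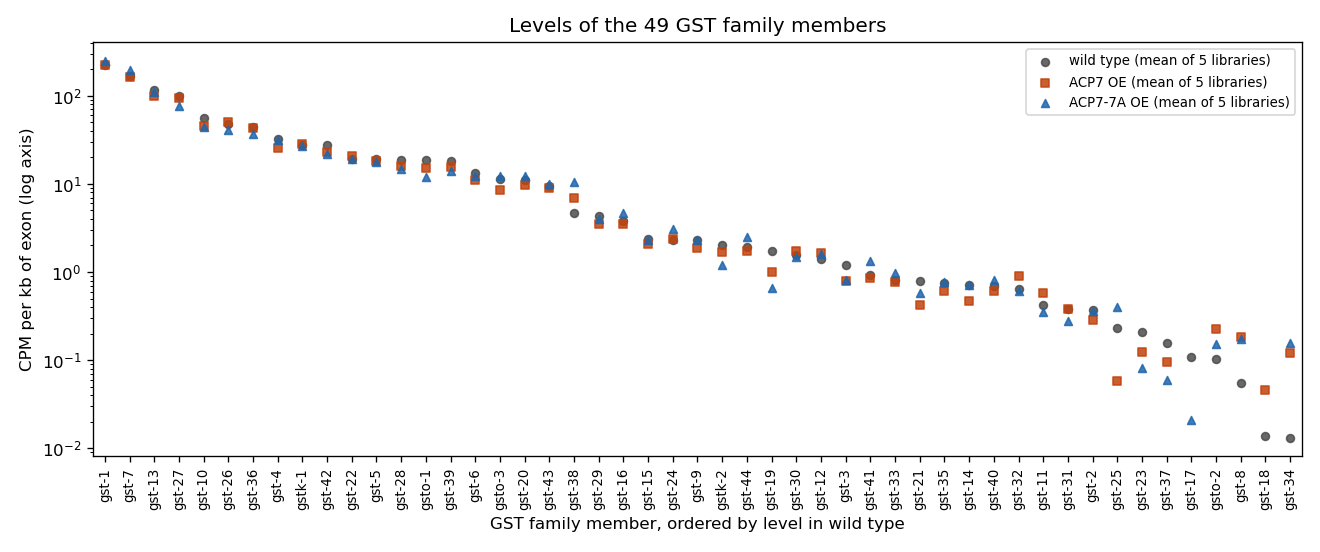
Level of each of the 49 GST genes in CPM per kilobase of exon on a log axis, as the mean of 5 libraries per group; a group at 0 is not drawn. gst-1, gst-7, gst-13, gst-27 and gst-10 led in wild type, from 226 down to 55.3 CPM per kilobase.

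The other end of the family was barely detected. Mean wild-type CPM was at least 10 for 17 members, between 1 and 10 for 13 and under 1 for 19. The filter on low counts left out 8 members, which are not part of any count below: gst-8, gst-17, gst-18, gst-23, gst-25, gst-34, gst-37 and gsto-2. These held 9 to 107 counts over all 15 libraries and at most 24 in any 1 library, while 3 counts corresponded to 0.0538 to 0.0755 CPM depending on the library. Among counts of 5 to 39, 81.3% to 86.1% were even in every library, as when both mates of a read pair are counted, so the number of sequenced fragments behind a count may be smaller than the count. The omega-class gsto-2, for instance, averaged 0.0886 CPM in wild type, 0.19 with ACP7 OE and 0.131 with ACP7-7A OE. A low level may mean few expressing cells or little RNA per cell, and bulk libraries cannot tell these apart, here or in any difference between groups. gst-17 and gst-18 share 351 bases of exon on 1 strand, so reads there cannot be assigned to either with certainty.

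Against wild type, worms overexpressing active ACP7 showed no GST gene past an adjusted p of 0.05. The call count was 0 of 41 tested members in edgeR's quasi-likelihood test with Benjamini-Hochberg adjustment over 15725 genes, where 2.68% of all genes were called (1.48% higher and 1.2% lower). At an unadjusted p under 0.05 there were 8 members (19.5%, against 16.5% of all genes), and DESeq2 called 1, gsto-3 (2.44%, against 4.6% of all genes). No member had libraries of ACP7 OE that lay wholly above or below wild type, which 6.73% of all genes did. The direction was uneven: 31 of 41 members had a log2 fold change below 0 (75.6%, against 50.8% of all genes), with a median of -0.17 against 0.0 for all genes.

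gsto-3, an omega-class GST, came nearest to the threshold. Its wild-type libraries read 9.25, 11, 9.75, 11.1 and 12.1 CPM, its ACP7 OE libraries 9.57, 7.97, 8.18, 7.35 and 6.69, and its ACP7-7A OE libraries 12, 11.9, 11.6, 11.5 and 10.7. ACP7 OE was low in 4 of 5 libraries, with replicate 1 inside the wild-type range, and all 5 lay below all 5 of ACP7-7A OE. The log2 difference from wild type was -0.42 (SE 0.12, 95% interval -0.66 to -0.18, adjusted p = 0.053). It passed the threshold in edgeR's test without wild-type replicate 1 (adjusted p = 0.038), ACP7 OE replicate 1 (0.023), ACP7-7A OE replicate 1 (0.047) or ACP7-7A OE replicate 2 (0.045).

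gst-10, which in worms conjugates the lipid peroxidation product 4-hydroxynonenal, was the second nearest. It averaged 39.7 ± 2.8 CPM in wild type and 32.5 ± 4.15 in ACP7 OE (SD, n = 5), a log2 difference of -0.29 (95% interval -0.48 to -0.1, adjusted p = 0.092). Without ACP7 OE replicate 1 its adjusted p was 0.036.

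gst-4, a widely used SKN-1 reporter gene, read 24.0, 25.0, 27.2, 21.3 and 22 CPM in wild type and 15, 17.9, 18.3, 22.4 and 18.9 in ACP7 OE. ACP7-7A OE read 17.5, 14.2, 25.3, 28.5 and 28.6, so that replicates 1 and 2 lay below all wild-type libraries and replicates 4 and 5 above them. The log2 difference of ACP7 OE from wild type was -0.37 (95% interval -0.71 to -0.03, adjusted p = 0.25), and that of ACP7-7A OE was -0.07 (95% interval -0.41 to 0.27). Without the 3 libraries that stood apart, ACP7-7A OE differed from wild type by 0.17, which was not called.

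gst-13 read 95.4, 95.3, 93.9, 93.6 and 75.3 CPM in wild type, 83.0, 77.4, 74.5, 78.0 and 77.8 in ACP7 OE, and 67.8, 73.7, 94.1, 104 and 91.3 in ACP7-7A OE. Wild-type replicate 5 was the single low wild-type library, and ACP7-7A OE replicates 1 and 2 were the low ones of their group, so the low values of both groups lay in the 3 libraries that stood apart. The log2 difference of ACP7 OE from wild type was -0.22 (95% interval -0.41 to -0.02, adjusted p = 0.24).

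**Figure D2:**
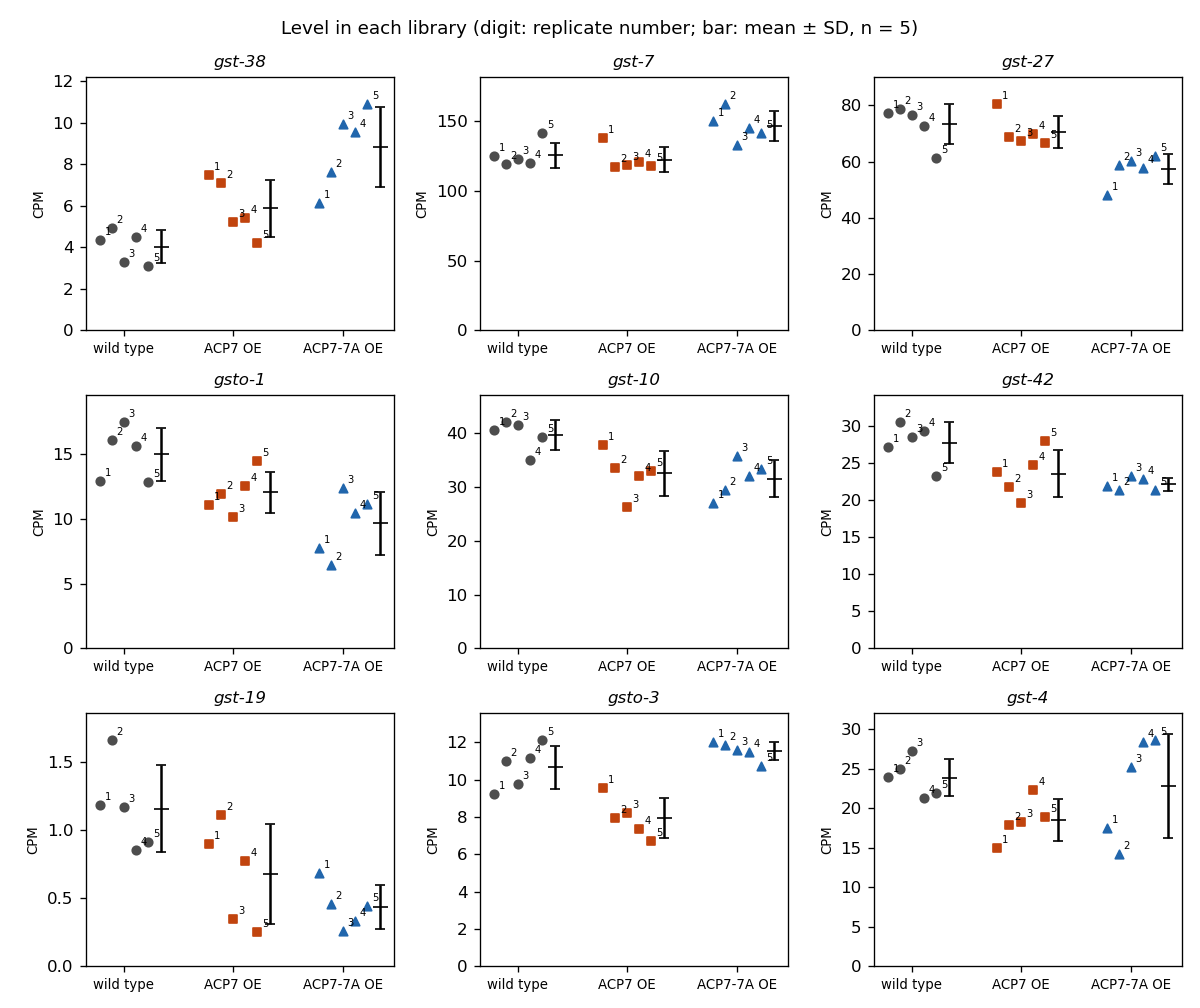
CPM of 9 GST genes in every library, with the replicate number as the symbol, by group; bars give the mean and SD of 5 libraries. gst-38 rises from 4.02 to 8.82 CPM between wild type and ACP7-7A OE, while gsto-3 is lowest in ACP7 OE.

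Leaving out the 3 libraries changed this comparison. In edgeR's test 8 of 43 tested members were then lower in ACP7 OE than in wild type (18.6%, against 15% of all genes called in either direction and 8.69% called lower), and none was higher. They were gst-13 (log2 fold change -0.29, adjusted p = 9e-05), gst-4 (-0.41, 0.0037), gst-10 (-0.31, 0.0099), gst-42 (-0.31, 0.015), gsto-1 (-0.38, 0.019), gst-28 (-0.34, 0.024), gsto-3 (-0.38, 0.027) and gst-6 (-0.36, 0.033). The values with all 15 libraries had the same sign for each of the 8, but none passed the threshold there.

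In worms overexpressing the phosphatase-inactive ACP7-7A, 7 of 41 tested GST genes changed against wild type, or 17.1% against 6.86% of all genes. Of these, gst-38 and gst-7 rose (4.88% of members, against 2.66% of all genes), and gst-27, gsto-1, gst-10, gst-42 and gst-19 fell (12.2% against 4.2%). For 4 of them the libraries of both groups did not overlap (9.76%, against 5.04% of all genes): gst-38 lay above wild type, and gsto-1, gst-42 and gst-19 below. Over all 41 members 58.5% had a log2 fold change below 0, against 50% of all genes, with a median of -0.07. Without the 3 libraries that stood apart 6 of 43 members were called (14.0%, against 10.7% of all genes): the same genes apart from gst-10. The median log2 fold change of the 43 members was then 0.03, against -0.011 for all genes, so the lean below 0 did not hold there.

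gst-38 (chromosome V, 15915162 to 15916070, minus strand, build WBcel235), a GST whose induction depends on SKN-1, showed the largest rise. Wild-type libraries read 4.34, 4.91, 3.28, 4.48 and 3.106 CPM, ACP7 OE libraries 7.46, 7.07, 5.2, 5.4 and 4.22, and ACP7-7A OE libraries 6.12, 7.62, 9.94, 9.53 and 10.9. Every ACP7-7A OE library exceeded every wild-type library, and ACP7 OE lay between, overlapping both. The rise in ACP7-7A OE was 2.19-fold (log2 1.13, SE 0.19, 95% interval 0.75 to 1.52, adjusted p = 0.0014), while ACP7 OE differed from wild type by log2 0.55 (SE 0.19, 95% interval 0.16 to 0.93, adjusted p = 0.13). The 2 ACP7-7A OE libraries with the lowest values were replicates 1 and 2, and without the 3 libraries the rise was log2 1.25 (adjusted p = 3.2e-05).

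gst-7 (chromosome II, 4882062 to 4883358, plus strand), another GST that is induced through SKN-1, rose 1.16-fold in ACP7-7A OE. Wild type read 124.8, 119.2, 123.1, 120.3 and 141.3 CPM, ACP7 OE 138.1, 117.3, 118.7, 120.4 and 118.0, and ACP7-7A OE 150, 162.1, 133.0, 145.2 and 141.4. Only wild-type replicate 5 reached into the ACP7-7A OE range, and the other wild-type libraries lay below it. The log2 difference was 0.22 (SE 0.06, 95% interval 0.09 to 0.35, adjusted p = 0.039), and it missed the threshold without any of 7 libraries (wild-type replicates 1 to 4 and ACP7-7A OE replicates 1, 2 and 4; adjusted p from 0.052 to 0.11). Without the 3 libraries that stood apart it was called at log2 0.19 (adjusted p = 0.017). ACP7 OE differed from wild type by log2 -0.04 (95% interval -0.17 to 0.09).

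gst-27 (chromosome II, 15164890 to 15165731, minus strand) fell 1.28-fold in ACP7-7A OE. It read 77.5, 78.6, 76.5, 72.5 and 61.2 CPM in wild type, 80.4, 68.7, 67.4, 69.8 and 66.7 in ACP7 OE, and 48.1, 59.0, 60.1, 57.8 and 62.1 in ACP7-7A OE. All ACP7-7A OE libraries were below all ACP7 OE libraries, and only wild-type replicate 5 came down to their level. The log2 difference from wild type was -0.35 (SE 0.08, 95% interval -0.51 to -0.19, adjusted p = 0.0089), and it was -0.35 as well without the 3 libraries (adjusted p = 0.00049). Between ACP7 OE and wild type it was -0.05 (95% interval -0.21 to 0.1).

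gsto-1 (chromosome III, 7945542 to 7947018, minus strand), an omega-class GST of the intestine linked in worms to resistance to oxidative stress, fell 1.56-fold in ACP7-7A OE. It read 12.9, 16.1, 17.5, 15.7 and 12.8 CPM in wild type, 11.1, 11.9, 10.2, 12.6 and 14.5 in ACP7 OE, and 7.8, 6.46, 12.4, 10.4 and 11.2 in ACP7-7A OE. All ACP7-7A OE libraries lay below all wild-type libraries, with replicates 1 and 2 lowest. The log2 difference was -0.64 (SE 0.15, 95% interval -0.95 to -0.33, adjusted p = 0.014), with adjusted p = 0.053 without wild-type replicate 3. Without the 3 libraries it was -0.46 (adjusted p = 0.021). gsto-1 shares 52 bases of exon (6.5%) with kle-2 on the opposite strand, and the strand setting of the counting is not given in the sources used here.

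gst-10 (chromosome V, 2561690 to 2564645, plus strand) fell 1.26-fold in ACP7-7A OE. Wild type read 40.6, 42, 41.6, 35.1 and 39.3 CPM, ACP7 OE 37.8, 33.6, 26.3, 32.0 and 33.0, and ACP7-7A OE 27, 29.5, 35.8, 32.1 and 33.3. Only wild-type replicate 4 and ACP7-7A OE replicate 3 overlapped, and both transgenic groups were lower on average than wild type. The log2 difference was -0.33 (SE 0.09, adjusted p = 0.03), and it missed the threshold without wild-type replicate 1, 2 or 3 or ACP7-7A OE replicate 1 or 2 (adjusted p from 0.063 to 0.08). Without the 3 libraries it was -0.25 (adjusted p = 0.095).

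gst-42 (chromosome X, 11726264 to 11727936, minus strand), the zeta-class maleylacetoacetate isomerase of tyrosine breakdown, fell 1.25-fold in ACP7-7A OE. Wild type read 27.2, 30.6, 28.5, 29.3 and 23.3 CPM, ACP7 OE 23.9, 21.8, 19.6, 24.7 and 28.1, and ACP7-7A OE 21.9, 21.4, 23.3, 22.9 and 21.4. Wild-type replicate 5 came within the rounding of the highest ACP7-7A OE library, while the other wild-type libraries stood clear. The log2 difference was -0.32 (SE 0.09, adjusted p = 0.038) and it missed the threshold without any of wild-type replicates 1 to 4 or ACP7-7A OE replicates 1, 2, 3 and 5 (adjusted p from 0.052 to 0.093). It was -0.36 without the 3 libraries (adjusted p = 0.017). gst-43, which is also of the zeta class, averaged 6.58 CPM in wild type, 6.21 with ACP7 OE and 6.99 with ACP7-7A OE, with no call.

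gst-19 (chromosome II, 13625545 to 13627145, minus strand) was the least abundant of the called members. It read 1.19, 1.66, 1.17, 0.856 and 0.912 CPM in wild type, 0.896, 1.11, 0.349, 0.771 and 0.25 in ACP7 OE, and 0.688, 0.456, 0.258, 0.334 and 0.445 in ACP7-7A OE, from 10 to 69 counts in a library, in which mates may be counted separately. All ACP7-7A OE libraries lay below all wild-type ones, and ACP7 OE overlapped both. The fall was 2.65-fold (log2 -1.4, SE 0.42, 95% interval -2.28 to -0.53, adjusted p = 0.045), and it missed the threshold without any of wild-type replicates 1 to 4, ACP7 OE replicate 4 or ACP7-7A OE replicates 2 to 5 (adjusted p from 0.051 to 0.12). Without the 3 libraries it was -1.81 (adjusted p = 0.022).

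Of the members that missed the threshold, gst-39 (log2 -0.39, adjusted p = 0.083) and gst-36 (-0.26, 0.091) came nearest in ACP7-7A OE. gst-39 was called without wild-type replicate 5 (0.035) or ACP7-7A OE replicate 4 (0.033), and gst-36 without the same libraries (0.024 and 0.042). gst-28 was called without wild-type replicate 5 (-0.47, adjusted p = 0.038, against -0.37 and 0.12 with all libraries). In edgeR's test without the 3 libraries that stood apart, gst-39 was weaker, at log2 -0.24 (adjusted p = 0.22). So were gst-36 at -0.19 (0.15) and gst-28 at -0.24 (0.21), with no call. gstk-2, the mitochondrial kappa-class GST, averaged 1.53 ± 0.353 CPM in wild type, 1.28 ± 0.456 with ACP7 OE and 0.911 ± 0.193 with ACP7-7A OE, with a log2 difference of -0.75 for ACP7-7A OE (95% interval -1.37 to -0.13, adjusted p = 0.13). Exons of gst-36 share 93 bases (12.3%) with scav-5 and those of gstk-2 share 44 bases (5.8%) with elo-3, and reads there cannot be told apart without strand information. gstk-1 was nearly level, at 21.6, 22 and 21.3 CPM, and the interval of its log2 difference from wild type ran from -0.22 to 0.18 in ACP7-7A OE. gst-1, the most abundant member, was at 169 ± 6.62 CPM in wild type, 169 ± 9.91 with ACP7 OE and 185 ± 9.04 with ACP7-7A OE (log2 0.13 for the last against wild type, adjusted p = 0.13).

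**Figure D3:**
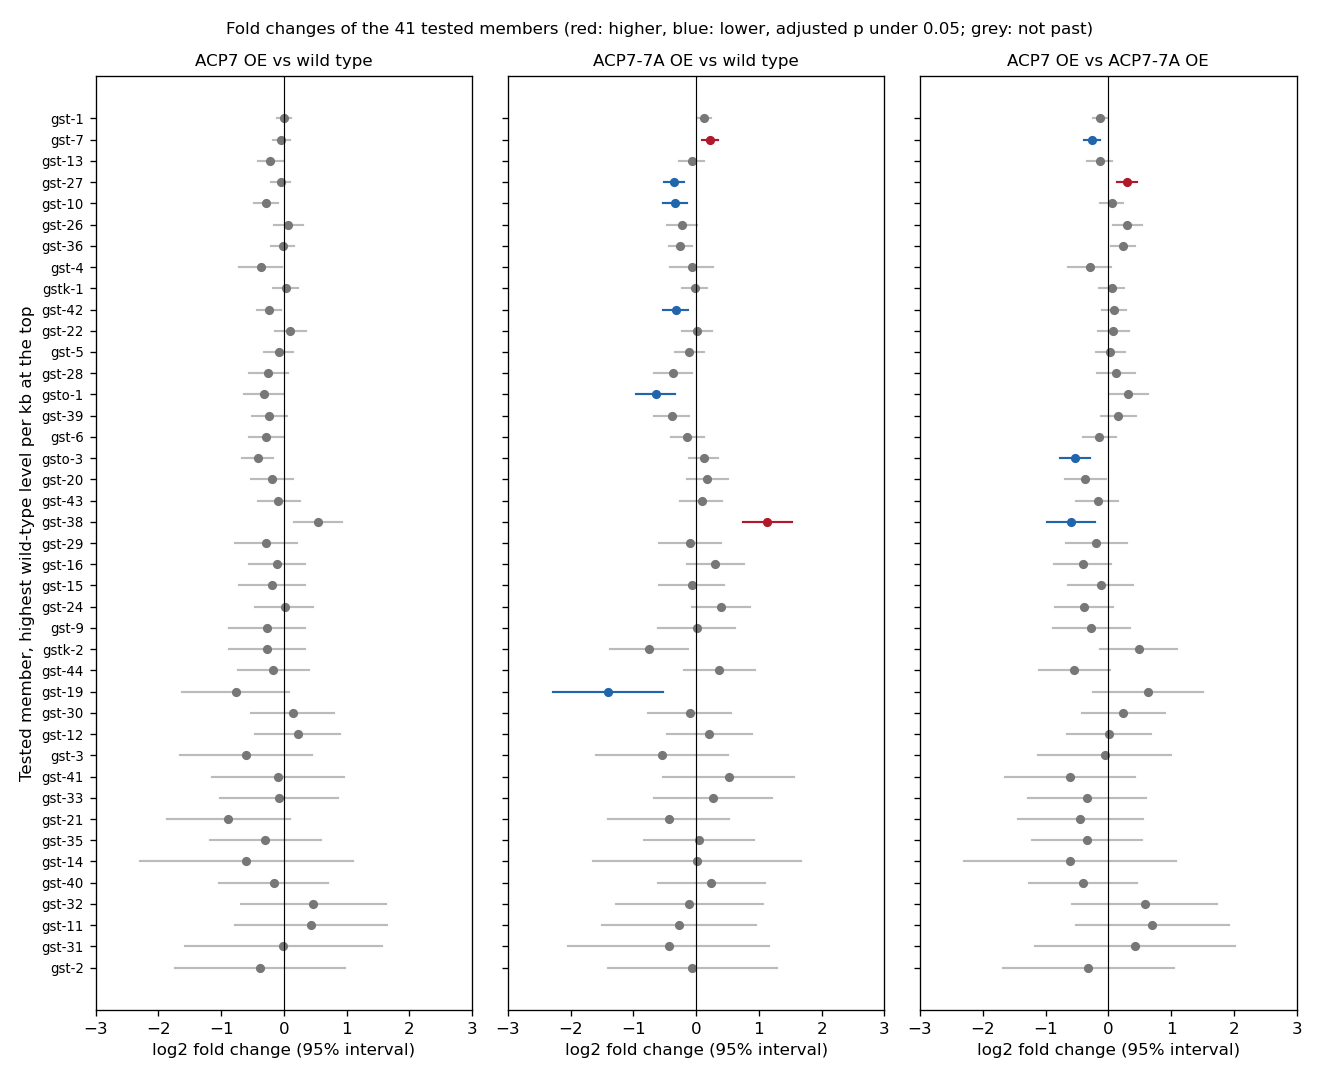
log2 fold change with 95% interval of the 41 tested GST genes in each of 3 comparisons; red marks higher and blue lower past an adjusted p of 0.05, grey the rest. No member is coloured for ACP7 OE against wild type, 7 are for ACP7-7A OE against wild type and 4 for ACP7 OE against ACP7-7A OE.

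In the direct comparison of the active with the inactive phosphatase, the groups differ by the 7A changes, the transgene level and the strain. These cannot be told apart here. The comparison called 4 of 41 members, or 9.76% against 8.56% of all genes, a share near the background. gst-27 was higher in ACP7 OE (2.44% of members, against 4.79% of all genes), and gsto-3, gst-7 and gst-38 were lower (7.32% against 3.76%). The libraries of both groups did not overlap for gst-27 and gsto-3 (4.88%, against 7.08% of all genes). Of the 41 members, 56.1% had a log2 fold change below 0 (50.9% of all genes), with a median of -0.13. All 3 comparisons draw on the same 3 groups, so their values are not independent of each other.

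gsto-3 (chromosome III, 378137 to 381298, minus strand) was 1.45-fold lower in ACP7 OE (log2 -0.53, SE 0.12, 95% interval -0.77 to -0.29, adjusted p = 0.0047), with all 5 libraries below all 5 of ACP7-7A OE, whose mean of 11.5 CPM was close to the 10.6 of wild type. gst-7 was 1.19-fold lower (log2 -0.26, SE 0.06, adjusted p = 0.011) and gst-27 1.23-fold higher (log2 0.3, SE 0.08, adjusted p = 0.015), and in both the ACP7 OE mean lay near wild type. gst-38 was 1.5-fold lower (log2 -0.59, SE 0.18, adjusted p = 0.047), a call that was lost when any of 10 libraries was left out (wild-type replicates 1, 2 and 4, ACP7 OE replicates 2 to 5 and ACP7-7A OE replicates 3 to 5; adjusted p from 0.053 to 0.15). gst-26 (log2 0.3, adjusted p = 0.1) and gst-36 (0.23, 0.12) were the nearest members that were not called. In edgeR's test without the 3 libraries that stood apart, both were at log2 0.11 (adjusted p = 0.41 and 0.45).

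Other members were called in this comparison only when libraries were removed. Without the 3 libraries that stood apart, 8 of 43 members were called (18.6%, against 13.6% of all genes), 7 of them lower in ACP7 OE: gst-13 (log2 -0.31, adjusted p = 8e-05), gst-4 (-0.58, 0.00024), gst-38 (-0.79, 0.0016), gst-20 (-0.59, 0.0045), gsto-3 (-0.51, 0.0067), gst-7 (-0.2, 0.0071) and gst-25 (-3.13, 0.039). gst-27 was higher (0.22, 0.012). gst-25 belongs to the members that the filter had removed, with at most 24 counts in a library. Its ACP7 OE libraries read 0 to 0.0582 CPM, so it passed the filter here only through libraries of the other groups. That step favours a lower value in ACP7 OE, so its call is not a separate finding, though the share of 18.6% includes it. Leaving out a single library called gst-25 without wild-type replicate 2 or ACP7-7A OE replicate 1 (log2 -2.73, adjusted p = 0.044, and -3.0, 0.039), gst-20 without ACP7-7A OE replicate 1 (log2 -0.48, adjusted p = 0.04), gst-4 without ACP7-7A OE replicate 2 (-0.43, 0.038) and gst-1 without ACP7 OE replicate 1 (-0.17, 0.04).

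The precision of these comparisons depended on the level of a member. For the 23 members whose average log2 CPM reached 1, the 95% interval of the log2 difference between ACP7-7A OE and wild type had a median half-width of 0.25 (0.11 to 0.56), and for the 18 members below 1 it was 0.91 (0.46 to 1.66).

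Expression was also compared along the chromosomes, where 26 of 49 members lie on chromosome II and the others on I (2), III (4), IV (5), V (9) and X (3). On chromosome II a group of 9 genes (gst-26, gst-27, gst-28, gst-29, gst-39, gst-31, gst-32, gst-34 and gst-35) lies between 15163817 and 15185389, where neighbours are at most 10 kb apart. In ACP7-7A OE, 7 of the 8 tested had a log2 fold change below 0 against wild type, with a median of -0.29 and 1 call, gst-27, where 50% of all genes were below 0 and 6.86% were called. Without the 3 libraries that stood apart, gst-31, gst-32 and gst-35 were above 0 (0.04, 0.12 and 0.19). The other tested genes of the group were then at -0.13 (gst-26), -0.35 (gst-27), -0.24 (gst-28), -0.12 (gst-29) and -0.24 (gst-39). Wild-type levels inside the group ran from 0.0132 to 98.7 CPM per kilobase. A second group of 9 on chromosome II (gst-20, gst-24, gst-15, gst-14, gst-12, gst-16, gst-19, gst-17 and gst-18; 13608154 to 13630887) ran from 0.0136 to 11 CPM per kilobase and had a median of 0.18 over its 7 tested members, with log2 fold changes from -1.4 for gst-19 to 0.4. On chromosome IV, gst-3, gst-2 and gst-4 (10139380 to 10143099) were all below 0 in all 3 comparisons with all 15 libraries, without a call. In ACP7-7A OE against wild type gst-2 and gst-4 were close to 0 (-0.06 and -0.07). There gst-4 was at 0.17 without the 3 libraries that stood apart, so the shared sign did not hold. gst-7, which rose, lies with gst-6, gst-8 and gst-9 between 4879891 and 4893573, and the 3 of these 4 that were tested had log2 values from -0.14 to 0.22 in ACP7-7A OE against wild type. These are descriptions, and neighbouring genes are not independent of each other.

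**Figure D4:**
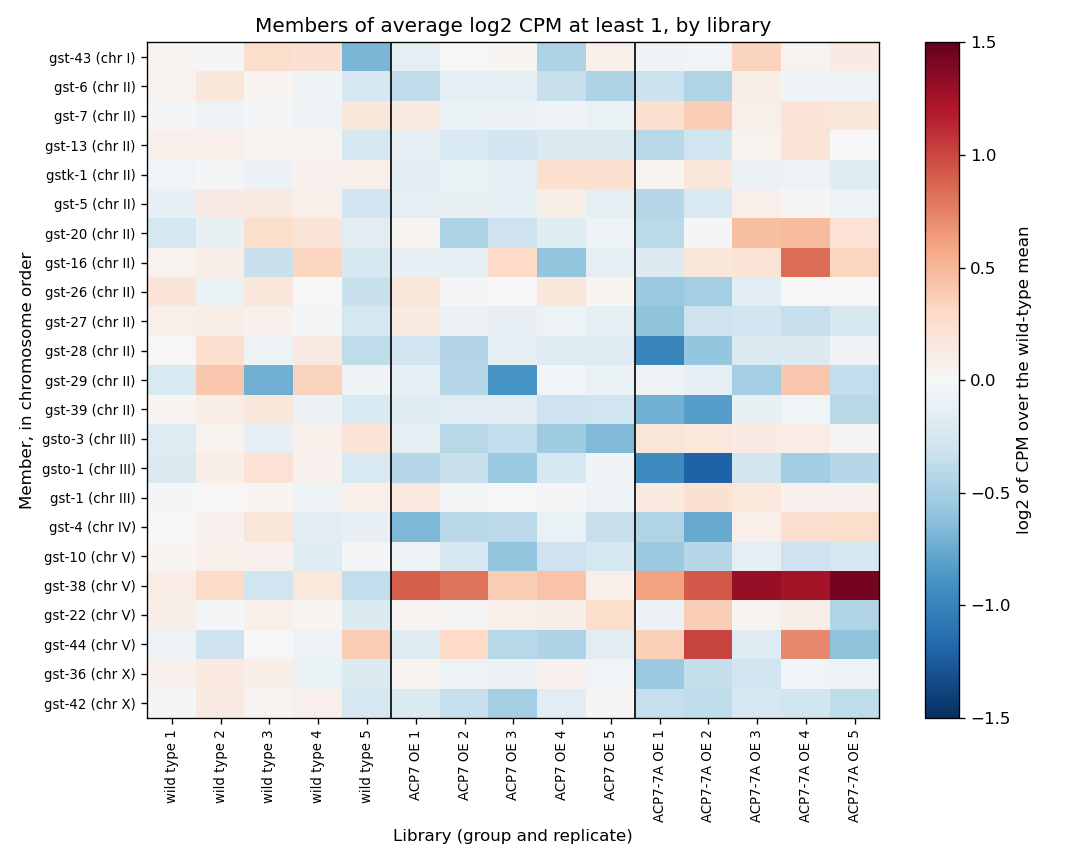
log2 of CPM over the wild-type mean in each of 15 libraries for the 23 GST genes whose average log2 CPM reached 1, in chromosome order, on a colour scale from -1.5 to 1.5. ACP7-7A OE replicates 1 and 2 differ from replicates 3 to 5 in several members, among them gst-4, which reads 17.5 and 14.2 CPM in the first 2 and 25.3 to 28.6 in the others.

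Differences inside the ACP7-7A OE group ran through several abundant members. gst-28 read 6.83 and 9.11 CPM in replicates 1 and 2 and 11.7, 11.8 and 13.1 in the others, and gst-26 read 22.6 and 23.3 against 29.8, 33.3 and 33.4. gst-39 was at 7.84 and 7.25 CPM in replicates 1 and 2 and at 12, 12.6 and 9.7 in the others. These 2 libraries are the ones with low msp and collagen sums. Whether these sums have a part in the GST values was not tested.

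The intestine is the tissue in which the construct is expressed and many GSTs are made, and its markers did not stand level. The summed CPM of 10 intestinal markers was 3230 in wild type (2390 to 3680), 3700 with ACP7 OE (3350 to 4300) and 2710 with ACP7-7A OE (2380 to 2960). In ACP7 OE against wild type none of the 10 was called and their median log2 fold change was -0.01, with asp-1 at 1740 CPM in wild type and 2160 in ACP7 OE as the main part of the higher sum; in ACP7-7A OE against wild type the median was -0.23. Among these markers cpr-1, a cathepsin B-like protease, fell in ACP7-7A OE against wild type (log2 -0.86, adjusted p = 0.026), and in the comparison of the transgenic groups cpr-1 and asp-1 were higher in ACP7 OE (1.41 and 0.49). Among the members called in ACP7-7A OE against wild type, gst-27, gsto-1, gst-42, gst-10 and gst-19 also had their lowest group mean in ACP7-7A OE. gst-38 and gst-7 had their highest there (8.82 and 146 CPM, against 4.02 and 126 in wild type and 5.87 and 123 in ACP7 OE). The means of gsto-3, gst-4 and gst-13 were lowest in ACP7 OE. The part of the intestinal markers in the GST differences was not tested. Among 8 germline and oocyte markers, 3 rose in ACP7-7A OE against wild type, where 2.66% of all genes rose: rme-2, mex-5 and oma-2. The sum of the 8 was 6930 and 7330 CPM in ACP7-7A OE replicates 1 and 2 and 5800 to 6120 CPM in the others. The sum of 7 body wall muscle markers averaged 4210, 3590 and 4500 CPM. In ACP7 OE against wild type 8 of 12 mitochondrially encoded genes fell, where 1.2% of all genes fell. Their share of counts was 1.58% in wild type, 1.21% with ACP7 OE and 1.43% with ACP7-7A OE.

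Genes that feed or regulate the GST family were compared from 5 lists. Of all genes, 2.68% were called in ACP7 OE against wild type and 6.86% in ACP7-7A OE against wild type. Between the transgenic groups 8.56% were called. In none of the 9 genes of glutathione synthesis, recycling and the glutaredoxins was a change called in any comparison; their medians were -0.01, 0.03 and -0.05 for ACP7 OE against wild type, ACP7-7A OE against wild type and ACP7 OE against ACP7-7A OE. The smallest p in each was that of gcs-1, the rate-limiting enzyme of glutathione synthesis and itself a SKN-1 target (log2 -0.1, adjusted p = 0.29), of the glyoxalase glod-4 (0.11, 0.35) and of glod-4 again (-0.21, 0.058). gcs-1 was at 130, 122 and 134 CPM in the 3 groups. None of the 4 SKN-1 activated genes gcs-1, nit-1, sdz-8 and dhs-8 was called in any comparison. Of these, gcs-1 is also part of the list above. nit-1, sdz-8 and dhs-8 averaged 4.31, 1.28 and 0.478 CPM in wild type. At such low levels a moderate change could be missed.

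Among 11 genes of SKN-1 and its regulators, nsy-1, a MAP kinase kinase kinase upstream of PMK-1, fell in ACP7 OE against wild type (log2 -0.25, SE 0.06, adjusted p = 0.034), and none was called for ACP7-7A OE, where skn-1 itself had the smallest p (0.15, 0.11). Between ACP7 OE and ACP7-7A OE, the kinase gene sgk-1 was higher (log2 0.40, adjusted p = 0.0025), and gsk-3, a kinase that restrains SKN-1, and nsy-1 were lower (-0.27, 0.01, and -0.23, 0.026). Of 22 tested genes that remove peroxide and superoxide, the mitochondrial thioredoxin trx-2 was the only call, higher in ACP7 OE in the comparison with ACP7-7A OE (log2 0.26, SE 0.07, adjusted p = 0.013). sod-3 (-0.48, 0.26) had the smallest p for ACP7 OE against wild type and trx-2 (-0.19, 0.079) for ACP7-7A OE. gpx-8 of this list was not found in the table.

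In tyrosine breakdown, the pathway of gst-42, 4 other genes were tested. hgo-1, homogentisate dioxygenase, which makes the substrate of gst-42, fell in ACP7-7A OE against wild type (log2 -0.24, SE 0.06, adjusted p = 0.023). tatn-1, the tyrosine aminotransferase at the head of the pathway, was higher in ACP7 OE against ACP7-7A OE (log2 0.38, SE 0.07, adjusted p = 0.00085), and in ACP7 OE against wild type it had the smallest p (0.18, 0.17).

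The counts of the other large detoxification families are given beside those of the GSTs, and the difference was not tested. Of 60 tested cytochrome P450 genes, 0 rose and 2 fell in ACP7 OE against wild type, 0 and 5 in ACP7-7A OE against wild type, and 4 were higher and 2 lower between ACP7 OE and ACP7-7A OE, with medians of -0.13, -0.21 and 0.0. Of 59 tested UDP-glucuronosyltransferase genes, 1 rose and 1 fell, 0 rose and 5 fell, and 3 were higher and 4 lower, with medians of -0.22, -0.14 and 0.07. Of all genes tested, 2.68%, 6.86% and 8.56% were called in these 3 comparisons, in either direction.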

How the data were processed

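The deposited values were counts per gene. Per the file headers, the authors made them with featureCounts 2.0.6; the submitters' processing notes name Trim Galore, STAR and the WBcel235 build, without versions. The sources used here give no strand or mate setting. Gene length in the table was used for CPM per kilobase. All 15 libraries entered 1 fit of the 3 groups in edgeR 4.0.16 (R 4.3.3), with TMM scaling, its filter on low counts by group (15725 genes kept) and the robust quasi-likelihood F test, adjusted by Benjamini-Hochberg over all genes tested, with a threshold of 0.05. SE is the log2 fold change divided by the root of F, and 95% intervals follow from it; these cover the spread between libraries. RefSeq locus tags matched 46925 of 46929 genes, and 0 columns held other samples. Floors of 3 counts cover counting error only. Alternatives were RLE scaling, DESeq2 1.42.0, no filter and a filter of 50 counts in 5 libraries, 2-group fits, a replicate block, halved counts, leaving out each library, and leaving out 3 libraries. Named were called members, the nearest misses, the 5 most abundant, members whose calls changed under an alternative, members with a library far from the others, and members of known role. The members, by a rule on symbols, and the lists were chosen with earlier results of these data known. Sequences of the members were not used here.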

Additional observations from a re-analysis of the deposited data

Results flagged for a closer look

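In 123 groups of 5 libraries (41 tested members in 3 groups), the highest or lowest library stood apart from the others by Dixon's 95% criterion in 11, and chance alone gives about 1 in 20. Wild-type replicate 5 was high for gst-7 (141 CPM against 119.2 to 124.8 in the others) and for gst-30 (2.07 against 0.831 to 0.971), and low for gst-13 (75.3 against 93.6 to 95.4). ACP7 OE replicate 1 was high for gst-7 (138 against 117 to 120), gst-27 (80.4 against 66.7 to 69.8) and gst-1 (186 against 161 to 168). The other 5 were gst-5 in ACP7 OE replicate 4 (14.6 against 12.5 to 12.8), gst-22 in ACP7 OE replicate 5 (16.7 against 14.1 to 14.7), gst-31 in wild-type replicate 1 (0.0457 against 0.283 to 0.345) and in ACP7-7A OE replicate 3 (0.581 against 0 to 0.162), and gst-11 in wild-type replicate 3 (0.647 against 0.197 to 0.32).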

How the results depend on the processing

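Of the 28 member results followed under 23 alternatives in each comparison (22 for gst-19, which the stricter filter removed), 0 changed direction. Of these, gst-38 and gst-27 in ACP7-7A OE against wild type, and gsto-3, gst-7 and gst-27 in ACP7 OE against ACP7-7A OE, were called under all of them; other members were not followed singly, and up to 8 members without a call changed sign under an alternative. For ACP7 OE against wild type, GST calls were 4 with only the groups compared in the fit, 8 without the 3 libraries that stood apart and 1 with DESeq2, against 0, and 0 to 2 leaving out 1 library (2 without ACP7 OE replicate 1, 1 without wild-type replicate 1 or ACP7-7A OE replicate 1 or 2); all-gene calls were 264 with the stricter filter, 1182 with only the groups compared, 2434 without the 3 libraries and 723 with DESeq2, against 422, and 256 to 794 leaving out 1 library (256 without ACP7 OE replicate 3, 651 without ACP7-7A OE replicate 2, 794 without wild-type replicate 5). There the split of higher and lower calls was 233 and 189, but 1021 and 1413 without the 3 libraries. The 4 GST calls with only the groups compared were 9.76% of members, against 7.77% of all genes. For ACP7-7A OE against wild type, GST calls were 2 to 10 leaving out 1 library, against 7: 2 without wild-type replicate 3, 3 without wild-type replicate 1 or 2 or ACP7-7A OE replicate 2, 4 without wild-type replicate 4 or ACP7-7A OE replicate 1, and 10 without wild-type replicate 5. The 2 calls were 4.76% of members, against 2.52% of all genes, and the 10 calls 23.8% against 14.1%. All-gene calls were 1747 without the 3 libraries and 1724 with DESeq2, against 1079, and 402 to 2248 leaving out 1 library (402 to 503 without wild-type replicate 1, 2, 3 or 4, 588 and 707 without ACP7-7A OE replicate 2 or 3, 2248 without wild-type replicate 5). For ACP7 OE against ACP7-7A OE, GST calls were 8 without the 3 libraries, against 4, and 3 to 6 leaving out 1 library; all-gene calls were 2212, against 1346, and 883 (without ACP7 OE replicate 4) to 1901. In that comparison the 3 GST calls were 7.14% of members without wild-type replicate 1 (8.13% of all genes) or without ACP7 OE replicate 4 (5.55%). The 6 calls without ACP7-7A OE replicate 1 were 14.3% of members, against 8.31% of all genes. The cause of the shifts in calls was not tested. Same-numbered libraries correlated from -0.233 to 0.162 in their deviations, above 0.1 in 1 of 15 pairs, so the numbers were not taken as pairs; with a replicate block, GST calls were 3 and all-gene calls 633 for ACP7-7A OE against wild type. The 3 GST calls with the block were 7.32% of members, against 4.03% of all genes. Halving every count, in case mates were counted separately, changed 0 of the 28 member calls. Depth limits the 19 members under 1 CPM in wild type.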

Other observations

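Genes next to called members were looked at after their values were seen. Within 20 kb of gst-38, 1 of 5 other tested genes rose in ACP7-7A OE against wild type, pzf-1 (log2 0.42, SE 0.12, adjusted p = 0.035 in edgeR's quasi-likelihood test). Near gst-42, 1 of 6 fell, C44C10.9 (log2 -0.48, adjusted p = 0.02), and near gsto-1, 1 of 12 fell, C29E4.13 (log2 -0.39, adjusted p = 0.025). In this comparison 6.86% of all genes were called. Against ACP7-7A OE, C29E4.13 was higher in ACP7 OE (log2 0.56, adjusted p = 0.00078), as were C44C10.9 (0.41, 0.033) and C44C10.11 (1.35, 0.045) near gst-42. There 8.56% of all genes were called. No tested neighbour of gst-27, gst-7, gst-19 or gst-10 within 20 kb was called in ACP7-7A OE against wild type.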
